A study of Mus musculus with 18 samples.

Results

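The Rassf genes encode Ras-association domain family proteins, and 8 of them (Rassf1, Rassf2, Rassf3, Rassf4, Rassf5, Rassf7, Rassf8 and Rassf9) were described here out of the 55335 gene identifiers that were counted. The family was chosen by the strong change of Rassf4 in these libraries. The levels and changes of Rassf4 are thus given as a description, with no test, and tests are given for the other members. The other members and the lists of partner genes used below were also chosen with earlier results of these data known. Their counts beside the shares of all genes are thus a description. RNA-seq counts came from O9-1 cells, a wildtype mouse neural crest (NC) cell line derived from the embryonic head, during osteoblast differentiation. Each of 3 groups was sequenced in 3 libraries at d2.5 and in 3 further libraries at d5 of differentiation, which gives 18 libraries. Ctrl+vehicle cells carried control siRNA without FGF2, Ctrl+FGF2 cells carried control siRNA with FGF2, a ligand of FGF receptors, and Y/T dKD+FGF2 cells carried siRNA against Yap and Taz, the transcriptional co-activators that the Hippo kinases restrain, with FGF2. No group combined the knockdown with vehicle, and all libraries came from this 1 cell line. The sample labels give each day as its own batch, so that day and batch cannot be told apart, and they do not say whether replicates were separate cultures, so p-values measure the spread between these libraries only.

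Rassf proteins have no enzyme activity and act as adaptors. The classical members, Rassf1 to Rassf6, carry a Ras-association domain followed by a C-terminal SARAH domain, through which they can bind the Hippo kinases Mst1 and Mst2 (genes Stk4 and Stk3), while Rassf7 to Rassf10 carry the Ras-association domain near the N-terminus and lack the SARAH domain. Several classical members are known as tumor suppressors that are silenced by promoter methylation, and they link Ras-like GTPases to the pathway that ends in Yap and Taz.

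The libraries held between 10377151 and 14698525 gene counts (median 12330911). Levels are given as CPM, which are counts divided by the library size after TMM scaling over the 18 libraries. In Y/T dKD+FGF2, Yap1 was at 51.9% of its Ctrl+FGF2 level at d2.5 and at 46.2% at d5. Wwtr1, which encodes Taz, was at 61.2% and 57.7%. In Ctrl+vehicle, Yap1 was at 116.2% and 95.9% of its Ctrl+FGF2 level, and Wwtr1 was at 63.1% and 107.5%. At d2.5 Wwtr1 was thus at 138.2 to 141.9 CPM in Ctrl+vehicle and at 130.0 to 141.9 CPM in Y/T dKD+FGF2, which overlap. All 6 NC mesenchyme markers checked (Twist1, Prrx1, Tfap2a, Snai2, Sox9 and Pdgfra) were at 1 CPM or more in every group. Of 6 lymphocyte and myeloid markers, Cd3e and Itgam had no count in any library, and the summed level of the 6 was between 0.911 and 5.53 CPM. Of these 6, 1 averaged 1 CPM or more in every group except Ctrl+vehicle and Ctrl+FGF2 at d5, where 2 did. At most 1 of 3 endothelial markers and at most 1 of 4 epithelial markers averaged 1 CPM or more in any group. The summed level of 6 osteoblast markers (Runx2, Sp7, Alpl, Col1a1, Ibsp and Bglap) moved with the groups. At d2.5 it was 13247 to 13407 CPM in Ctrl+vehicle, 2299 to 2426 CPM in Ctrl+FGF2 and 2163 to 2299 CPM in Y/T dKD+FGF2. At d5 it was 31098 to 33113 CPM, 15858 to 17613 CPM and 21893 to 23256 CPM in the same order. Of the 6 markers, 5, 4 and 4 averaged 1 CPM or more in these groups at d2.5, and 6, 5 and 6 did at d5. The sum does not show how each marker moved. The part of the movement of this sum in the changes of the Rassf genes was not tested. In bulk RNA, fewer cells of a type and less RNA per cell cannot be told apart.

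The sequences before the start sites of Rassf4, Rassf2 and Rassf7 are shown because these are the 3 members whose level at d5 was higher with FGF2 and lower again in Y/T dKD+FGF2. RefSeq windows (build GRCm38.p6) were given for 5 of the 8 members, with 2 for Rassf1, and the 250 bases before each start site were searched on both strands. The letters GGAATG, the core bound by the Tead partners of Yap and Taz, occurred in 1 of these 6 windows, that of Rassf2, starting 213 bases before the start site, against 12.64% of 32851 promoter windows of the same length. The letters TGANTCA, bound by AP-1 factors, occurred in 0 of the 6 windows and in 6.749% of all windows. The window of Rassf5 (chr1:131200186-131200435) and the second of Rassf1 (chr9:107554333-107554582) lay inside the annotated genes. The sequence before the outermost annotated start of Rassf5 was thus not searched. The match is marked in capitals below. A match describes the letters only, and a window without one says nothing of where a factor binds. For Rassf4 only the 134 bases outside the annotated gene are printed. The strands are minus for Rassf4 (chr6:116673953-116674086) and Rassf2 (chr2:132030325-132030574) and plus for Rassf7 (chr7:141215610-141215859).
Rassf4: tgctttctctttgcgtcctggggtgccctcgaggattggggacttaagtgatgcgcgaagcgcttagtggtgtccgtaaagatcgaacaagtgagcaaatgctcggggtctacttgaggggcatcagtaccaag
Rassf2: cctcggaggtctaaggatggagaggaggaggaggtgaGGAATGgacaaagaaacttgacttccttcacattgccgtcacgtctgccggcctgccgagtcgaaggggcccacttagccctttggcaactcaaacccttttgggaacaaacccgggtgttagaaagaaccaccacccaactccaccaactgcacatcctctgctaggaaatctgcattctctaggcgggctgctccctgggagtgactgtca
Rassf7: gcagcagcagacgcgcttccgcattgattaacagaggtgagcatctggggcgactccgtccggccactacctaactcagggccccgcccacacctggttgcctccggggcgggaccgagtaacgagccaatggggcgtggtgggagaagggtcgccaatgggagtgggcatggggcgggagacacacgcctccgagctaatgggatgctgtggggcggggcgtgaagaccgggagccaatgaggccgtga

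Among the classical members, Rassf4 was nearly undetected at d2.5 with FGF2 and was at its highest level at d5 with FGF2. Rassf4 spans bases 116633008 to 116673952 of chromosome 6 (minus strand), with GRCm38 coordinates from GENCODE M21, and is known for an effect on Mst1 in rhabdomyosarcoma and for a role in store-operated calcium entry. At d2.5 the counts were 20, 12 and 18 in the Ctrl+vehicle libraries, 2, 3 and 1 in Ctrl+FGF2 and 2, 1 and 1 in Y/T dKD+FGF2. Both FGF2-treated groups thus lay below every Ctrl+vehicle library and overlapped each other. Rassf4 was 8.33-fold lower in Ctrl+FGF2 than in Ctrl+vehicle, with a 95% interval of 3.57 to 23.8 from the summed 6 and 50 counts, which covers counting error only. For Y/T dKD+FGF2 over Ctrl+FGF2 at d2.5, the ratio of summed counts, 4 to 6, was 0.761 (counting interval 0.158 to 3.21). These counts are too few to describe a difference. Rassf4 passed the filter on low counts at d2.5 only through the Ctrl+vehicle libraries.

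At d5 the levels of Rassf4 were 5.43, 5.75 and 5.66 CPM in Ctrl+vehicle, 15.4, 16.7 and 15.2 CPM in Ctrl+FGF2 and 1.62, 2.49 and 1.32 CPM in Y/T dKD+FGF2. The 3 groups did not overlap, and the Y/T dKD+FGF2 libraries were below the Ctrl+vehicle libraries as well. The summed counts, 186, 542 and 62, put Ctrl+FGF2 2.81-fold above Ctrl+vehicle (interval 2.38 to 3.34). Y/T dKD+FGF2 was 8.57-fold below Ctrl+FGF2 (interval 6.58 to 11.3) and 3.05-fold below Ctrl+vehicle (interval 2.27 to 4.13). These intervals, too, cover counting error only and not the spread between libraries. In log2 terms the knockdown change of Rassf4 at d5 was −3.10 (SE 0.16). Without Y/T dKD+FGF2 replicate 2, which held the highest of the 3 knockdown levels, it was −3.41.

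**Figure D1:**
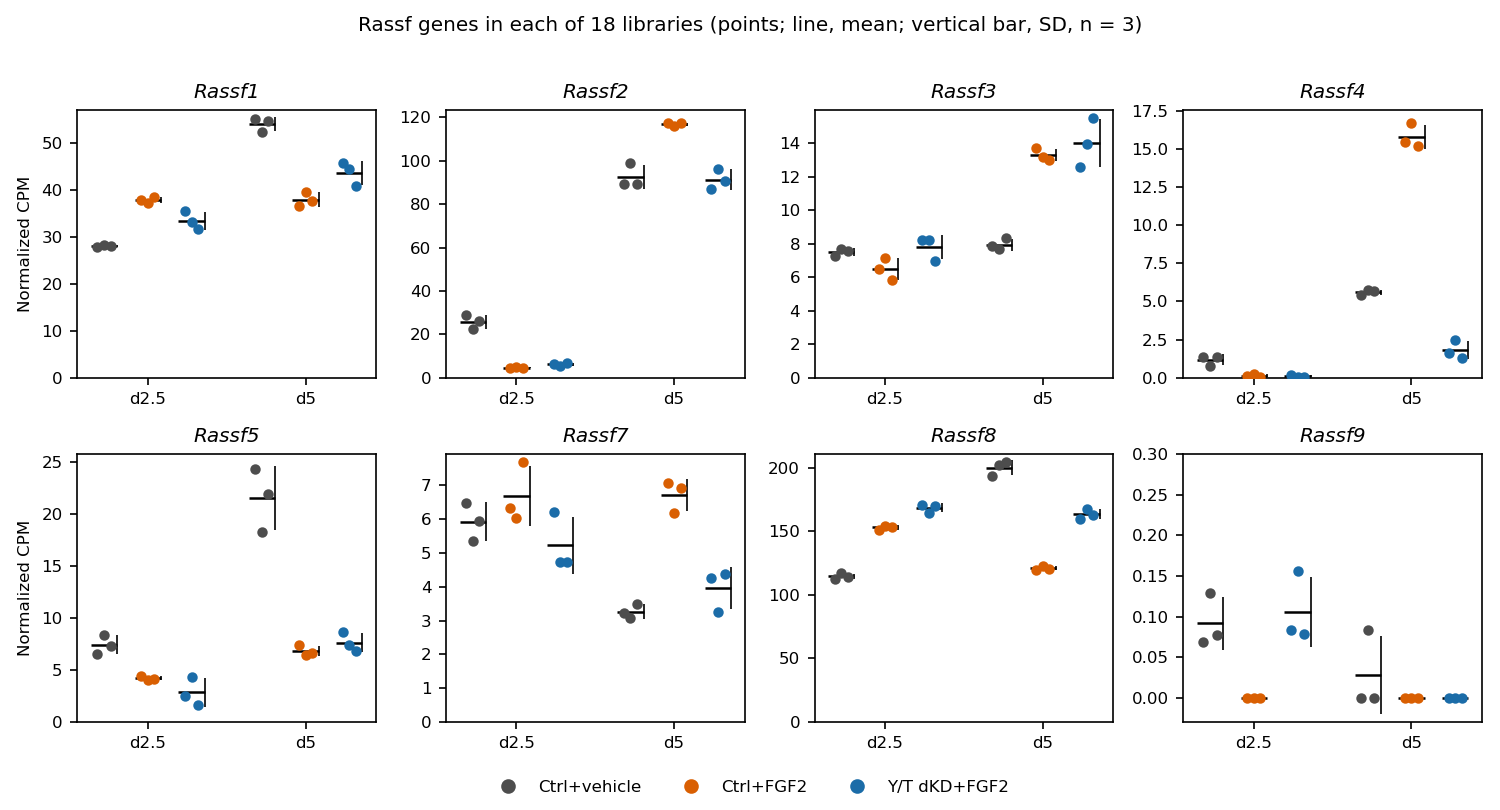
Normalized CPM (vertical axes, linear, each panel on its own scale) of the 8 Rassf genes in the 18 libraries, grouped by day and colored by group. Points are libraries, horizontal lines are means and vertical bars are SDs (n = 3). Rassf4 and Rassf2 were lowest in the FGF2-treated libraries of d2.5 and highest in Ctrl+FGF2 at d5.

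Rassf2, which binds and stabilizes Mst1 and is known for a role in bone remodeling in mice, had the largest FGF2 change at d2.5 among the members tested. Rassf2 spans bases 131989415 to 132030258 of chromosome 2 (minus strand), and its upstream window is the one that holds the Tead letters. At d2.5 it was at 28.9, 22.6 and 26.1 CPM in Ctrl+vehicle, 4.72, 5.02 and 4.41 CPM in Ctrl+FGF2 and 6.46, 5.44 and 6.79 CPM in Y/T dKD+FGF2. The Ctrl+vehicle libraries were all above the rest, and the lowest Y/T dKD+FGF2 library was above the highest Ctrl+FGF2 library. Rassf2 fell by 2.46 on the log2 scale with FGF2 (SE 0.11, adjusted p = 1.3e-18, edgeR). The knockdown difference at d2.5, 0.39 (SE 0.15), missed the threshold at an adjusted p of 0.0549, and passed it without Ctrl+vehicle replicate 1 or 2 or Y/T dKD+FGF2 replicate 2 (adjusted p between 0.0326 and 0.0346). Its lowest value when 1 library was omitted was 0.32 (adjusted p = 0.212), without Y/T dKD+FGF2 replicate 3, and its highest was 0.48.

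At d5 Rassf2 was at 89.3, 99.1 and 89.3 CPM in Ctrl+vehicle, 117, 116 and 117 CPM in Ctrl+FGF2 and 86.8, 96.3 and 90.8 CPM in Y/T dKD+FGF2. The Ctrl+FGF2 libraries were the highest, and the other groups overlapped. Rassf2 rose with FGF2 by a log2 fold change of 0.35 (SE 0.05, adjusted p = 1.3e-05) and was lower by the knockdown, with a log2 fold change of −0.36 (SE 0.05, adjusted p = 1.5e-05). Y/T dKD+FGF2 against Ctrl+vehicle gave −0.01 (SE 0.05, adjusted p = 0.84).

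Rassf5, also called Nore1 or RAPL, is an effector of Ras and Rap GTPases known for lymphocyte adhesion, and was the member that was lower with FGF2 on both days. Rassf5 spans bases 131176410 to 131245258 of chromosome 1 (minus strand), where an exon overlaps Eif2d on the opposite strand. At d2.5 it was at 6.56, 8.39 and 7.26 CPM in Ctrl+vehicle, 4.44, 4.08 and 4.14 CPM in Ctrl+FGF2 and 2.48, 4.36 and 1.66 CPM in Y/T dKD+FGF2. All FGF2-treated libraries were below the Ctrl+vehicle libraries, and Y/T dKD+FGF2 replicate 2 stood among the Ctrl+FGF2 libraries while the other replicates were below them. Rassf5 fell by 0.83 on the log2 scale with FGF2 at d2.5 (SE 0.17, adjusted p = 0.00010). The knockdown difference at d2.5, −0.58 (SE 0.22), missed the threshold (adjusted p = 0.0518), and its size depended on which library was left out. It was −1.04 (adjusted p = 0.000958) without replicate 2 of Y/T dKD+FGF2, −0.30 (adjusted p = 0.369) without replicate 3 and −0.49 (adjusted p = 0.176) without replicate 1. It also passed without Ctrl+vehicle replicate 1 or 2 (adjusted p = 0.0241 and 0.0293). With unstranded counts, which do not separate the strands of Rassf5 and Eif2d, it was −0.573 (adjusted p = 0.0453). At d5 Rassf5 was at 24.3, 18.2 and 21.9 CPM in Ctrl+vehicle, 7.35, 6.43 and 6.65 CPM in Ctrl+FGF2 and 8.68, 7.39 and 6.82 CPM in Y/T dKD+FGF2. It fell by 1.64 on the log2 scale with FGF2 (SE 0.13, adjusted p = 1.4e-08), a larger change than 98.11% of genes tested had, and the groups with FGF2 overlapped (knockdown difference 0.17, SE 0.15, adjusted p = 0.441).

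Rassf1, a tumor suppressor that binds microtubules and Mst kinases, moved in opposite directions with FGF2 on the 2 days. Rassf1 spans bases 107551555 to 107562267 of chromosome 9 (plus strand) and overlaps the opposite-strand gene Gm9917. It has 2 promoter windows in RefSeq, and counts per gene do not separate its isoforms. At d2.5 it was at 27.9, 28.3 and 28.0 CPM in Ctrl+vehicle, 37.8, 37.3 and 38.6 CPM in Ctrl+FGF2 and 35.4, 33.2 and 31.7 CPM in Y/T dKD+FGF2. At d5 it was at 55.1, 52.2 and 54.8 CPM in Ctrl+vehicle, 36.5, 39.7 and 37.7 CPM in Ctrl+FGF2 and 45.7, 44.5 and 40.8 CPM in Y/T dKD+FGF2. On each day the Y/T dKD+FGF2 libraries lay between the libraries of the other groups. FGF2 raised Rassf1 at d2.5 (log2 fold change 0.42, SE 0.06, adjusted p = 2.1e-07) and lowered it at d5 (log2 fold change −0.49, SE 0.06, adjusted p = 2.4e-06). The knockdown changes were small, −0.19 (SE 0.06, adjusted p = 0.0161) at d2.5 and 0.20 (SE 0.06, adjusted p = 0.0186) at d5. With DESeq2 neither passed (adjusted p = 0.0846 and 0.0747), and with unstranded counts, which do not separate the strands of Rassf1 and Gm9917, the difference was −0.35 (adjusted p = 0.00935) at d2.5 and 0.05 (adjusted p = 0.717) at d5. Leaving out 1 library also ended the call, at d2.5 for Ctrl+FGF2 replicate 3 and Y/T dKD+FGF2 replicate 3 and at d5 for Ctrl+FGF2 replicates 1 and 3 and Y/T dKD+FGF2 replicates 1 and 2 (adjusted p between 0.0568 and 0.105).

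Rassf3, a classical member known to bind Mdm2, spans bases 121410350 to 121476347 of chromosome 10 (minus strand). Its level was between 5.82 and 8.24 CPM in the 9 libraries of d2.5, where neither FGF2 (log2 fold change −0.23, SE 0.12, adjusted p = 0.102) nor the knockdown (0.26, SE 0.12, adjusted p = 0.129) passed the test. At d5 it was 7.67 to 8.35 CPM in Ctrl+vehicle, 13.0 to 13.7 CPM in Ctrl+FGF2 and 12.6 to 15.5 CPM in Y/T dKD+FGF2. Rassf3 rose with FGF2 at d5 by a log2 fold change of 0.75 (SE 0.11, adjusted p = 2.0e-05), and the knockdown difference was 0.06 (SE 0.10, adjusted p = 0.679).

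Of the members without a SARAH domain, Rassf7 rose with FGF2 and was lower by the knockdown at d5, and Rassf8 did the reverse. Rassf7, known for a role at the centrosome and mitotic spindle, spans bases 141215860 to 141218658 of chromosome 7 (plus strand). At d2.5 it was between 4.74 and 7.69 CPM in the 9 libraries, all 3 groups overlapped, and neither comparison passed the test (FGF2 0.17, SE 0.14, adjusted p = 0.28, and knockdown −0.37, SE 0.14, adjusted p = 0.0586). The knockdown difference passed without Ctrl+vehicle replicate 1 or 2, Ctrl+FGF2 replicate 2 or Y/T dKD+FGF2 replicate 1 (adjusted p between 0.026 and 0.0495), and was −0.26 (adjusted p = 0.286) without Ctrl+FGF2 replicate 3 and −0.31 (adjusted p = 0.21) without Y/T dKD+FGF2 replicate 3. At d5 it was at 3.22, 3.08 and 3.50 CPM in Ctrl+vehicle, 7.08, 6.19 and 6.92 CPM in Ctrl+FGF2 and 4.25, 3.24 and 4.38 CPM in Y/T dKD+FGF2. The Ctrl+FGF2 libraries were the highest and the other groups overlapped. The FGF2 change was 1.05 on the log2 scale (SE 0.16, adjusted p = 3.4e-05), and the knockdown change was −0.78 (SE 0.15, adjusted p = 0.00080). Y/T dKD+FGF2 against Ctrl+vehicle gave 0.28 (SE 0.18, adjusted p = 0.236).

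Rassf8, known for a role at adherens junctions, spans bases 145746748 to 145821079 of chromosome 6 (plus strand) and was the most abundant member. At d2.5 it was at 113, 117 and 114 CPM in Ctrl+vehicle, 151, 154 and 154 CPM in Ctrl+FGF2 and 171, 164 and 170 CPM in Y/T dKD+FGF2. At d5 it was at 194, 202 and 205 CPM in Ctrl+vehicle, 119, 123 and 120 CPM in Ctrl+FGF2 and 160, 168 and 163 CPM in Y/T dKD+FGF2. No groups of a day overlapped. FGF2 raised Rassf8 at d2.5 (log2 fold change 0.41, SE 0.04, adjusted p = 2.0e-11) and lowered it at d5 (log2 fold change −0.71, SE 0.04, adjusted p = 1.3e-10). It was higher in Y/T dKD+FGF2 than in Ctrl+FGF2 on both days, by log2 fold changes of 0.13 (SE 0.04, adjusted p = 0.00702) at d2.5 and 0.43 (SE 0.04, adjusted p = 1.4e-07) at d5.

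Rassf9, known from recycling endosomes and keratinocytes, spans bases 102512222 to 102549736 of chromosome 10 (plus strand) and was too low to be tested. At d2.5 Ctrl+vehicle held 4 counts in total, Y/T dKD+FGF2 also held 4 and Ctrl+FGF2 held 0, and the 9 libraries of d5 held 1 count in total.

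Counted over the members, 6 of the 7 others than Rassf4 passed the filter on low counts and were tested. The members were chosen with earlier results of these data known, so their shares are descriptive. With FGF2 at d2.5, 4 of the 6 were called, 2 higher (Rassf1 and Rassf8) and 2 lower (Rassf2 and Rassf5), where 67.6% of the 13677 genes tested were called, 33.5% higher and 34.1% lower. With FGF2 at d5, all 6 were called, 3 higher (Rassf2, Rassf3 and Rassf7) and 3 lower (Rassf1, Rassf5 and Rassf8), against 47.2% of 13304 genes, 23.5% higher and 23.7% lower. By the knockdown at d2.5, 2 of the 6 were called (Rassf8 higher, Rassf1 lower), against 24.5% of genes, 10.8% higher and 13.6% lower. By the knockdown at d5, 4 of the 6 were called, 2 higher (Rassf1 and Rassf8) and 2 lower (Rassf2 and Rassf7), against 31.7% of genes, 15.6% higher and 16.1% lower. The members' shares at d2.5 were thus near those of all genes. The count for the knockdown at d2.5 depended on the settings, from 1 to 5 members.

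**Figure D2:**
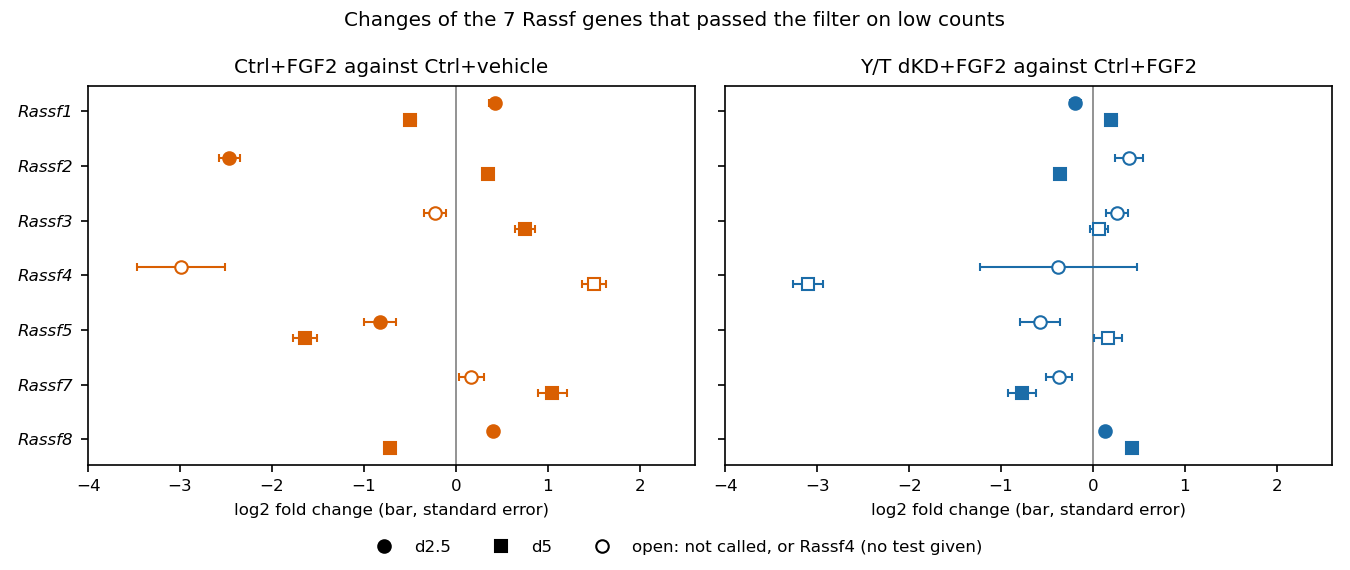
Log2 fold changes (horizontal axes, bars are standard errors) of the 7 Rassf genes that passed the filter on low counts, for FGF2 (left) and the knockdown under FGF2 (right) at d2.5 (circles) and d5 (squares). Filled marks are called at an adjusted p under 0.05 and open marks are not called or are Rassf4, for which no test is given. With FGF2, Rassf1, Rassf2 and Rassf8, called on both days, lie on opposite sides of 0 at d2.5 and d5, as do the values of Rassf3, not called at d2.5, and Rassf4.

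Y/T dKD+FGF2 against Ctrl+vehicle shares its libraries with both comparisons above, so its values are given beside them. At d2.5, 4 of the 6 were called (69.8% of all genes tested), with log2 fold changes of 0.23 for Rassf1, −2.07 for Rassf2, −1.40 for Rassf5 and 0.54 for Rassf8. At d5, 4 of the 6 were called (41.8% of all genes tested), with −0.30 for Rassf1, 0.82 for Rassf3, −1.47 for Rassf5 and −0.28 for Rassf8. The value of Rassf4, without a test, was −3.37 at d2.5 and −1.60 at d5. The d2.5 value of Rassf1 did not pass with unstranded counts (0.11, adjusted p = 0.355).

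Whether an effect differed from one day to the other was tested with the 18 libraries fitted together. The FGF2 effect differed between days for all 6 members tested, against 60.9% of 14198 genes. The difference, d5 minus d2.5 on the log2 scale, was 2.78 (SE 0.12, adjusted p = 6.1e-18) for Rassf2, 0.96 (SE 0.16) for Rassf3 and 0.86 (SE 0.21) for Rassf7, and −1.15 (SE 0.05, adjusted p = 1.2e-17) for Rassf8, −0.94 (SE 0.08) for Rassf1 and −0.84 (SE 0.24) for Rassf5. Among the other 4 the adjusted p was between 2.6e-11 and 0.00293. The knockdown effect differed between days for 3 of the 6, against 20.9% of genes, by −0.76 (SE 0.16, adjusted p = 0.00082) for Rassf2, 0.39 (SE 0.08, adjusted p = 0.00087) for Rassf1 and 0.30 (SE 0.05, adjusted p = 8.0e-05) for Rassf8. For Rassf5 (0.74, adjusted p = 0.064), Rassf7 (−0.41, adjusted p = 0.186) and Rassf3 (−0.20, adjusted p = 0.386) it missed the threshold. Without Y/T dKD+FGF2 replicate 2 of d2.5 the difference of Rassf5 was 1.19 (adjusted p = 0.00306), and without replicate 3 it was 0.465 (adjusted p = 0.267). It passed also without Ctrl+vehicle replicate 1 or 2 of d5 (adjusted p = 0.0477 and 0.0426).

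Mean levels of the days are given side by side, with no test. Rassf2 was at 25.9 CPM at d2.5 and 92.6 CPM at d5 in Ctrl+vehicle, and at 4.72 and 117 CPM in Ctrl+FGF2. Rassf1, Rassf4, Rassf5 and Rassf8 were also higher at d5 in Ctrl+vehicle, with no overlap of the libraries of the days, and Rassf7 was lower (5.93 and 3.27 CPM). In Ctrl+FGF2 the means of Rassf1 were 37.9 and 38.0 CPM and those of Rassf7 were 6.69 and 6.73 CPM.

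Levels of different genes were compared as CPM per kilobase of exon (union of the exons in GENCODE M21). Rassf8 was the highest member in every group, at 20.6 to 36.0 CPM per kilobase on average, and no library of it overlapped the next member. Rassf1 was next at d2.5 in all groups (4.80 to 6.49). At d5 Rassf2 reached 9.74 ± 0.06 (SD, n = 3) in Ctrl+FGF2, above Rassf1 at 6.49 ± 0.27, while in Y/T dKD+FGF2 Rassf2 and Rassf1 (7.61 and 7.47) overlapped. Neighbors in the order also overlapped in Ctrl+vehicle at d2.5 (Rassf2, Rassf3 and Rassf5, at 2.16, 1.96 and 1.85) and in both Y/T dKD+FGF2 groups (Rassf5 and Rassf2 at d2.5, at 0.709 and 0.520, and Rassf5 and Rassf7 at d5, at 1.91 and 1.84). Rassf4 stood between 0.0117 and 0.609 in 5 groups, below the 6 members tested, and at 1.71 in Ctrl+FGF2 at d5, where it overlapped Rassf5 at 1.70. Rassf9 was at or below 0.0144 in every group and overlapped Rassf4 in Y/T dKD+FGF2 at d2.5. With the longest transcript as the length, Rassf1 was above Rassf2 in every group.

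**Figure D3:**
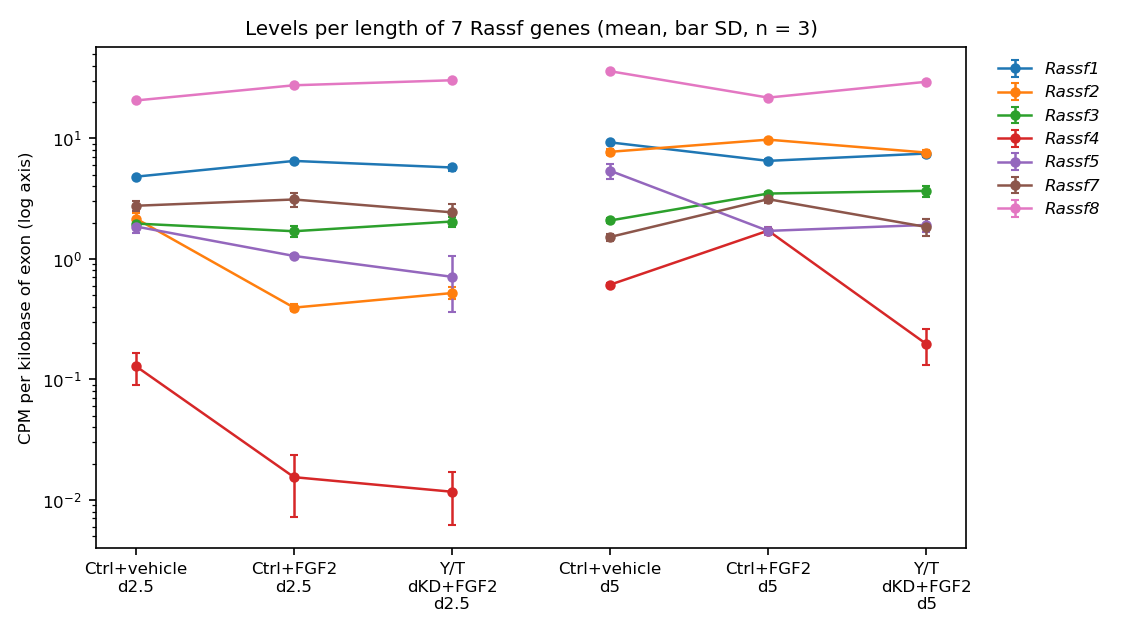
Mean CPM per kilobase of exon (vertical axis, log scale) of 7 Rassf genes in the 6 groups, with d2.5 on the left and d5 on the right. Bars are SDs (n = 3), and lines join the groups of a day only to guide the eye. Rassf8 was the highest member throughout, and Rassf4 ranged from 0.0117 in Y/T dKD+FGF2 at d2.5 to 1.71 in Ctrl+FGF2 at d5.

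Over the 18 libraries the log2 levels of Rassf2 and Rassf4 had a Pearson r of 0.924, the highest of the 21 pairs of members, and Rassf7 and Rassf8 had the lowest at −0.736. These libraries share groups, days and batches, so the coefficients describe the pattern and carry no p. Among the 11731 genes whose log2 CPM averaged at least 1, the genes most like Rassf4 were BC067074 (r = 0.985), Aldh1a7 (0.981), an aldehyde dehydrogenase, Phf21a (0.978), Arhgef18 (0.976), a guanine nucleotide exchange factor, and Arsg (0.975), an arylsulfatase. At d2.5 Aldh1a7 was at 36.9 CPM in Ctrl+vehicle, 13.1 CPM in Ctrl+FGF2 and 6.95 CPM in Y/T dKD+FGF2. Its levels in the same groups of d5 were 266.7, 422.5 and 74.5 CPM. The most like gene was Itm2b for Rassf2 (r = 0.997), Bnc1 for Rassf1 (0.975), Sdc4 for Rassf3 (0.968), Derl1 for Rassf5 (0.9495), Dlg4 for Rassf7 (0.903) and Tcf12 for Rassf8 (0.951).

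**Figure D4:**
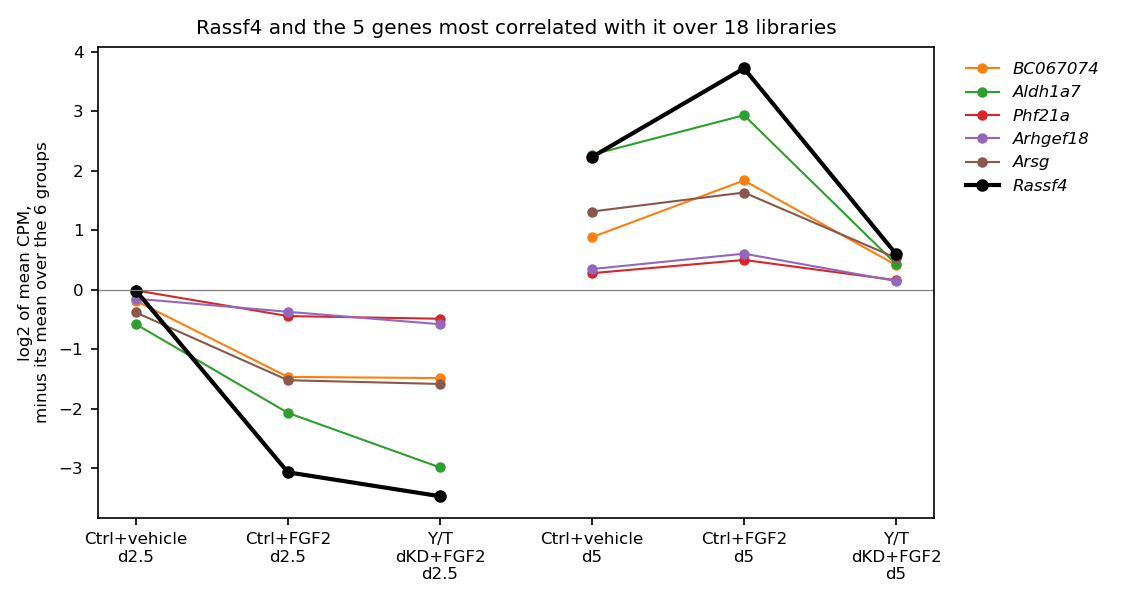
Log2 of the mean CPM in each group minus its mean over the 6 groups (vertical axis) for Rassf4 (black) and the 5 genes most correlated with it over the 18 libraries. All 6 genes were lowest in Y/T dKD+FGF2 or Ctrl+FGF2 at d2.5 and highest in Ctrl+FGF2 at d5, and Rassf4 had the widest range.

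The genes of proteins that Rassf proteins bind or act with were read from lists, chosen with earlier results of these data known. They stand beside the shares of all genes called. Those shares were 67.6% with FGF2 at d2.5 and 47.2% at d5, and 24.5% by the knockdown at d2.5 and 31.7% at d5. Of 10 SARAH-domain and Hippo kinase pathway genes, FGF2 raised 4 and lowered 1 at d2.5 and raised 1 and lowered 5 at d5 (median log2 fold change 0.05 and −0.10, against 0.00 and 0.02 over all genes). The knockdown raised 2 and lowered 1 at d2.5, and raised 5 and lowered 1 at d5 (median 0.06 and 0.12, against 0.00 on both days over all genes). Wwc1, which encodes Kibra, an upstream activator of the Hippo kinases, was the gene the knockdown lowered on both days. It was at 18.4 ± 1.09 CPM in Ctrl+FGF2 and 14.0 ± 1.31 CPM in Y/T dKD+FGF2 at d2.5 (SD, n = 3, log2 fold change −0.40, SE 0.09, adjusted p = 0.00167). At d5 it was at 6.50 ± 0.26 CPM in Ctrl+vehicle, 17.6 ± 1.45 CPM in Ctrl+FGF2 and 4.98 ± 0.47 CPM in Y/T dKD+FGF2 (FGF2 1.45, SE 0.11, adjusted p = 1.4e-08, and knockdown −1.82, SE 0.12, adjusted p = 2.8e-09). Mob1b, a co-activator of the Lats kinases, had the largest knockdown rise of the list on both days (log2 fold changes 0.17 and 0.26), and the largest FGF2 falls were those of Lats2 at d2.5 (−0.32) and Mob1a at d5 (−0.30). For the genes named from this list the adjusted p was at most 0.0282.

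Of 12 Ras-like GTPase genes, FGF2 raised 6 and lowered 2 at d2.5 and raised 2 and lowered 4 at d5, where 67.6% and 47.2% of all genes were called (median log2 fold change of the list 0.14 and −0.03, against 0.00 and 0.02 over all genes). Rit1 had the largest fall with FGF2 at d2.5 (log2 fold change −0.47). At d5 the largest rise with FGF2 was that of Rras (0.35) and the largest fall that of Rap1b (−0.35). The knockdown raised 1 and lowered 2 at d2.5, with the largest changes in Nras (0.10) and Rras2 (−0.35), and raised 4 and lowered 1 at d5, with Hras (0.27) and Rras (−0.31). Of all genes 24.5% and 31.7% were called, and the list's medians were 0.06 and 0.08, against 0.00 on both days. For the genes named from this list the adjusted p was at most 0.0302.

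Of 15 other partners, 13 were tested at d2.5 and 12 at d5. FGF2 raised 6 and lowered 5 at d2.5 and raised 2 and lowered 5 at d5, and the knockdown raised 1 and lowered 3 at d2.5 and raised 0 and lowered 3 at d5. Of all genes, 67.6% and 47.2% were called with FGF2 and 24.5% and 31.7% by the knockdown. The median log2 fold changes of the list were 0.18 and −0.14 with FGF2, against 0.00 and 0.02 over all genes, and −0.09 and −0.07 by the knockdown, against 0.00 on both days. Stim1, the calcium sensor of store-operated entry, fell with FGF2 at d2.5 from 93.8 ± 2.48 to 24.7 ± 1.01 CPM (log2 fold change −1.94, SE 0.06, adjusted p = 1.7e-23). At d5 Stim1 fell with FGF2 as well (log2 fold change −0.57, SE 0.05, adjusted p = 4.9e-08). On that day it was lower still in Y/T dKD+FGF2 (77.2 ± 2.41 CPM) than in Ctrl+FGF2 (125 ± 3.25 CPM, log2 fold change −0.70, SE 0.05, adjusted p = 1.9e-08). FGF2 raised the mitotic kinase gene Aurka at d2.5 (1.23) and lowered it at d5 (−1.59). Map1s, whose protein binds Rassf1 on microtubules, was lower by the knockdown at d2.5 (−0.61) and rose with FGF2 at d5 (0.53), and Usp7 rose by the knockdown at d2.5 (0.14). For the genes named from this list the adjusted p was at most 0.0023.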

How the data were processed

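Poly(A) RNA of 18 libraries of O9-1 cells was measured. The deposited values are raw counts, unnormalized, 1 number for each gene and strand setting as STAR's gene counts are laid out. Per the submitters' processing notes, FastQC, STAR, Picard, featureCounts and mm10 were used, with versions not given in the sources used here. Counts of the reverse strand (96.0% to 96.6% of stranded counts) were used, and entries that name no gene (27.0% to 34.4%) were left out. Of 55335 identifiers, 55154 matched GENCODE M21 (GRCm38). The depth limits precision to the counting intervals printed.

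The quasi-likelihood test of edgeR 4.0.16 (R 4.3.3, TMM, filterByExpr, which needed at least 0.78 CPM at d2.5 and 0.815 CPM at d5 in 3 libraries) was run on each day's 9 libraries, and across days on all 18. A gene was called at a Benjamini-Hochberg adjusted p under 0.05 over all genes tested. The SE of a log2 fold change is its size over the root of F. The scripts were tested on simulated data. Named genes were the members, Rassf6 and Rassf10, the siRNA targets, the largest called rise and fall of each partner list for each FGF2 and knockdown comparison, the 5 genes most like Rassf4 (log2 CPM with a prior count of 2) and the 1 most like each other member tested. The result of 1 gene that this rule names is not reported here. The members and lists were chosen with earlier results of these data known. Alternatives were DESeq2 1.42.0, RLE factors, no filter, at least 10 counts in every library, only the 2 groups compared, 1 fit of 18 libraries, a replicate block, unstranded counts, leaving out each library, and the longest transcript as length.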

Additional observations from a re-analysis of the deposited data

Results flagged for a closer look

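The effect of FGF2 differed between d2.5 and d5 for the 6 Rassf genes tested, in the interaction test of edgeR over 18 libraries. As d5 minus d2.5 in log2 fold change, the difference was −0.94 for Rassf1, 2.78 for Rassf2, 0.96 for Rassf3, −0.84 for Rassf5, 0.86 for Rassf7 and −1.15 for Rassf8. For Rassf4 the FGF2 difference was 4.46, and it was not tested, since Rassf4 was used to choose the family. All 3 Ctrl+FGF2 libraries were below all 3 Ctrl+vehicle libraries for Rassf4 at d2.5 and above them at d5. The knockdown effect differed between the days for Rassf1 (0.39), Rassf2 (−0.76) and Rassf8 (0.30).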

How the results depend on the processing

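Of 1043 log2 fold changes of members under alternatives, 1003 kept their direction and side of the threshold (for Rassf4, stayed within the spread), 10 lost and 23 gained a call, 5 changed sign and 2 moved, both of Rassf4 without Y/T dKD+FGF2 d5 replicate 2 (−3.41 against Ctrl+FGF2 and −1.91 against Ctrl+vehicle). The sign changes were of values that were not called. They were Rassf4 by the knockdown at d2.5 without Ctrl+FGF2 replicate 2 (0.036, range −0.776 to 0.036 with each library left out), Rassf3 against Ctrl+vehicle at d2.5 without Y/T dKD+FGF2 replicate 2 (−0.003, range −0.003 to 0.113), Rassf3 by the knockdown at d5 without Y/T dKD+FGF2 replicate 3 (−0.006, range −0.006 to 0.133), and Rassf2 against Ctrl+vehicle at d5 without Ctrl+vehicle replicate 2 (0.030) or Y/T dKD+FGF2 replicate 1 (0.018, range −0.060 to 0.030). The count of members called by the knockdown at d2.5, 2 as reported, was 1 with DESeq2, 5 in a fit of only the groups compared, 4 with the replicate block and 1 to 5 with 1 library left out, and the cause was not tested. Rassf1 lost that call without Ctrl+FGF2 replicate 3 (adjusted p = 0.0628) or Y/T dKD+FGF2 replicate 3 (0.105). Rassf2 gained it with RLE factors (0.0484), and Rassf5 with no filter (0.0157) and with unstranded counts (0.0453). Rassf2, Rassf5 and Rassf7 gained it without Ctrl+vehicle replicate 1 (0.0326, 0.0241 and 0.042) or replicate 2 (0.0339, 0.0293 and 0.0459). Rassf2 and Rassf5 gained it without Y/T dKD+FGF2 replicate 2 (0.0346 and 0.000958), while the log2 fold change of Rassf5 ran from −1.04 without that library to −0.30 without replicate 3 (0.369), and Rassf7 without Ctrl+FGF2 replicate 2 (0.0495) or Y/T dKD+FGF2 replicate 1 (0.026). At d5 Rassf1 lost its knockdown call without Ctrl+FGF2 replicate 1 (0.0687) or 3 (0.0568) or Y/T dKD+FGF2 replicate 1 (0.0966) or 2 (0.0705). The difference of the knockdown effect of Rassf5 between days passed without Y/T dKD+FGF2 d2.5 replicate 2 (1.19, 0.00306), was 0.465 without replicate 3 (0.267), and passed without Ctrl+vehicle d5 replicate 1 (0.0477) or 2 (0.0426). With no filter on low counts that difference passed as well (0.723, 0.0202). Same-numbered libraries correlated between −0.082 and 0.157. For each pair of groups of a day, each library of 1 group was matched to the other group. Of these 18 matches, 5 were best with the same number. All 5 were between Ctrl+vehicle and Ctrl+FGF2, and at d5 every Ctrl+vehicle library matched its own number there. At d5 the same-numbered libraries of these groups had r of 0.145, 0.157 and 0.0273 for replicates 1, 2 and 3. Whether equal numbers mean paired cultures was not tested. The replicate block gave calls to Rassf2 and Rassf5 by the knockdown at d2.5 (adjusted p = 0.0433 and 0.039) and to the Rassf5 difference between days (0.0335), and changed no other call of a member. Counts of 3 or fewer per library limit what can be said of Rassf9 and of Rassf4 in the FGF2-treated groups of d2.5.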

Other observations

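The remaining family genes, Rassf6 and Rassf10, were too low to be tested on either day. Rassf10, which lacks the SARAH domain, was at 1.10, 1.30 and 0.629 CPM in Ctrl+FGF2 at d5. These levels were above the 0.201, 0.250 and 0.180 CPM in Ctrl+vehicle and the 0.595, 0.332 and 0.204 CPM in Y/T dKD+FGF2. The closest libraries, Ctrl+FGF2 replicate 3 and Y/T dKD+FGF2 replicate 1, each held 7 counts, so only the library scaling set them apart. From summed counts of 35 and 7 the ratio of Ctrl+FGF2 to Ctrl+vehicle was 4.82 (95% counting interval 2.11 to 12.9), and from 35 and 13 Y/T dKD+FGF2 was 2.64-fold lower than Ctrl+FGF2 (interval 1.36 to 5.43). At d2.5 the groups of Rassf10 overlapped, with between 5 and 10 counts a group. Rassf6 had between 5 and 14 counts in every group, and its groups overlapped on both days.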
